A study of Gallus gallus with 24 samples.

Results

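Untreated explants of retinal pigment epithelium (RPE) were compared between 48 h and 24 h in culture, which gives the change of the tissue with time in plain maintenance medium. All 6 control libraries were used, 3 at each time, of the 24 libraries in the series, and the comparison covered the 15001 of 24356 genes whose mean was at least 10 over the 24 libraries. The explants came from specific pathogen free chicken embryos at embryonic day 4. Each library held polyadenylated RNA from 1 biological replicate made of 3 explants put together. The same 2 times were sampled with fibroblast growth factor 2 (FGF2) at 10 ng/ml and with dichloroacetate (DCA), an inhibitor of pyruvate dehydrogenase kinases, at 20 mM, and these groups serve below as comparisons. Explants with both agents at these concentrations were sampled at the same times too. Their libraries enter the filter and the shared model. The labels do not say whether replicates came from separate collections, so p-values measure the spread between these pools.

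The RPE is the pigmented single cell layer behind the retina. It arises from the same optic vesicle as the neural retina, makes melanin under the control of MITF and OTX2, recycles retinoids for the photoreceptors and takes up their shed outer segments. In the chick embryo the young RPE can still turn into neural retina when it is exposed to FGF2, and the untreated explant is the reference against which that switch is read. An explant can also carry cells that lie against the RPE in the eye, such as periocular mesenchyme, vessels, blood cells and macrophages.

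Levels are normalized read counts, the counts after division by 1 size factor per library, and are given for replicates 1, 2 and 3 in that order. Changes are log2 fold changes of 48 h over 24 h on the log2(count + 1) scale with the SE of the model, and a gene is said to have risen or fallen where limma's adjusted p was under 0.05. Normalized counts are not divided by gene length, so levels are not compared between genes. The control libraries held 36562414 to 47066338 reads and 16218 to 17258 detected genes. Libraries of the same time correlated at r = 0.966 to 0.975 across genes, and libraries of different times at 0.945 to 0.956, and genes are not independent replicates. Mitochondrially encoded genes took 7.15% ± 0.28 (SD, n = 3) of reads at 24 h and 6.93% ± 0.07 at 48 h, an exact permutation p of 0.4 where 3 against 3 libraries allow no p below 0.1. The label of the tissue was checked against pigment genes. PMEL (ENSGALG00000035350), the scaffold protein of the melanosome, read 88425, 76760 and 71121 at 24 h and 72838, 81446 and 72467 at 48 h, so the pigment cell signal was high in each of the 6 libraries.

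Of the 15001 genes, 2549 were called (17%), 1454 of them higher (9.69%) and 1095 lower (7.3%) at 48 h. Counts of calls in this comparison for the gene lists below are to be read beside these shares. The median log2 fold change over all genes was 0.01. Changes of at least 2-fold were found for 674 called genes, 546 higher and 128 lower. The 3 libraries of 1 time lay wholly apart from those of the other time for 36.6% of genes, with 19.8% higher and 16.9% lower at 48 h. Most genes named from a list below were picked by small adjusted p in this same comparison. That choice favours separate groups, so their separation is a description and no further support. Leaving out 1 control library at a time gave 1744 to 2104 calls. The number of genes called lower was 698 without replicate 1 at 24 h and 723 without replicate 1 at 48 h, and the number called higher stayed between 1021 and 1220 in these 6 fits.

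**Figure D1:**
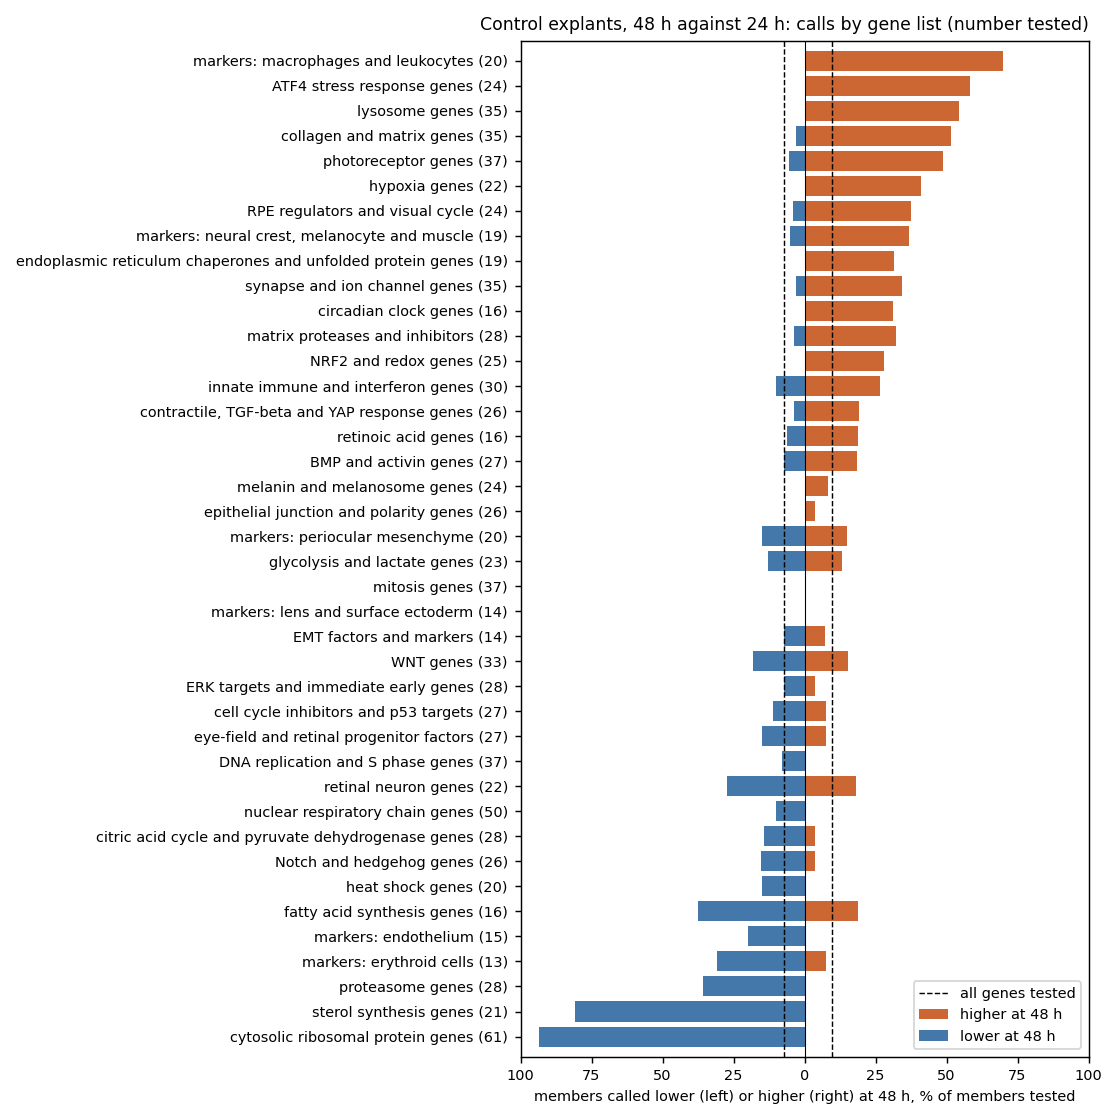
Share of tested members called higher (right) or lower (left) at 48 h against 24 h in control explants, in percent of members tested, for 40 gene lists with the number tested in parentheses. Dashed lines mark the shares over all 15001 genes, 9.69% higher and 7.3% lower. Macrophage, ATF4 and lysosome lists extend far to the right, and ribosomal protein and sterol synthesis genes far to the left.

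The 12 largest rises among named genes with a mean of at least 100 and separate groups included a retinol-binding protein and photoreceptor genes. RBP4 (ENSGALG00000015374), a member of the retinol-binding protein family, read 402, 505 and 712 at 24 h and 15809, 17982 and 18193 at 48 h, a change of 5.04 ± 0.23 (adjusted p = 4.3e-12, limma). Every 48 h library stood far above every 24 h library. In RefSeq's table for the newer GRCg7b assembly the gene with this symbol carries the synonym RBP4B and lies beside PDE6B, while RBP4A is the symbol of another gene. RBP4A (ENSGALG00000006629), looked up for this reason, read 14.9, 15.6 and 16.8 at 24 h and 11.1, 20.5 and 23.5 at 48 h (0.15 ± 0.81, adjusted p = 0.94), with overlapping groups. TTR (ENSGALG00000015143), transthyretin, which carries thyroid hormone and retinol-binding protein, went from 123, 79.8 and 81.7 to 831, 631 and 504 (2.77 ± 0.43, adjusted p = 0.00011).

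OPN1LW (ENSGALG00000050470), the red cone opsin, read 312, 326 and 399 at 24 h and 3215, 3260 and 3110 at 48 h. The 2 groups did not overlap, and the change was 3.21 ± 0.26 (adjusted p = 5.6e-08, limma). GNAT2 (ENSGALG00000038084), the cone transducin alpha subunit, rose from 29.9, 28 and 19.9 to 488, 480 and 436 (4.14 ± 0.30, adjusted p = 1.1e-08). RBP3 (ENSGALG00000005978), the retinoid binding protein that photoreceptors secrete into the space facing the RPE, rose from 60.8, 73.6 and 76.5 to 1448, 1146 and 1120 (4.12 ± 0.26, adjusted p = 8.5e-10). These 3 genes had no 48 h library near the 24 h range, though GNAT2 and RBP3 were chosen by a rule that required separate groups. OPN1LW was taken by its small adjusted p from a list added after values were seen, so its separation is no independent support. PRPH2 (ENSGALG00000009909), a tetraspanin of outer segment discs, read 6.40, 30.1 and 27.2 and then 362, 368 and 400 (4.34 ± 0.62, adjusted p = 5.6e-05). RXRG (ENSGALG00000040730), a retinoid X receptor of early cones, rose from 2558, 3438 and 3837 to 7261, 7985 and 7889 (1.25 ± 0.12, adjusted p = 3.5e-07).

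The next 2 genes were also picked after their values were seen. CNGB3 (ENSGALG00000037644), a cone channel subunit, went from 0, 21.8 and 14.7 to 177, 183 and 219 (4.77 ± 0.89, adjusted p = 0.00079, limma). PDE6B (ENSGALG00000015373), the rod phosphodiesterase subunit, was at 0 in all 3 libraries at 24 h and at 78.8, 77.2 and 80.9 at 48 h, which is at least 25.1-fold higher with a floor of 3 reads per library. Of 37 photoreceptor genes tested, on a list added after values were seen, 18 rose and 2 fell, with a median of 0.82. The 2 that fell were IMPG1 (ENSGALG00000015897), a proteoglycan of the matrix between photoreceptors and RPE, from 21669, 29856 and 29682 to 13568, 15143 and 17575, and PDE6G (ENSGALG00000004514), the inhibitory phosphodiesterase subunit, from 242, 247 and 307 to 84.9, 103 and 176. PDE6G was not called without replicate 1 at 48 h (adjusted p = 0.052, limma), and the other genes named here were called in each of the 6 fits that left out a library. Because whole explants were sequenced, fewer cells of a type and less RNA per cell cannot be told apart, and the same holds for rises.

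**Figure D2:**
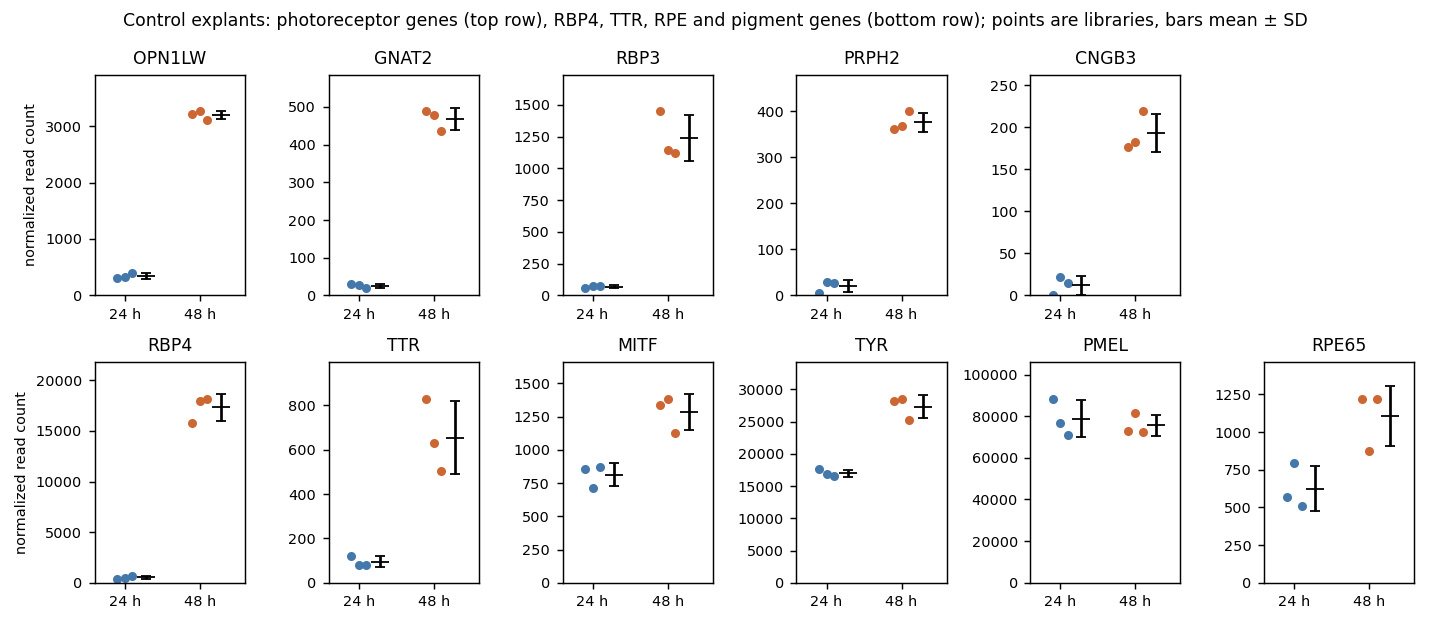
Normalized read counts of 11 genes in the 6 control libraries, 24 h in blue and 48 h in orange, each panel on its own axis from 0; black marks give the mean and SD of 3 libraries. The 5 photoreceptor genes of the top row, RBP4 and TTR were near the axis at 24 h and high at 48 h, MITF rose less, and PMEL overlapped between the times.

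Of 24 RPE regulators and visual cycle genes tested, 9 rose and 1 fell, with a median of 0.35, and this count includes RBP4 and TTR. MITF (ENSGALG00000039583), the transcription factor that directs pigment cell fate, read 853, 715 and 874 at 24 h and 1335, 1385 and 1129 at 48 h. The groups were apart, with a change of 0.66 ± 0.12 (adjusted p = 0.00067, limma). OTX2 (ENSGALG00000034889), its partner in RPE specification, read 15426 ± 592 and 16726 ± 703 (SD, n = 3), a change of 0.12 ± 0.08 that was not called (adjusted p = 0.35). SERPINF1 (ENSGALG00000003015), the RPE-secreted factor PEDF, rose from 608, 781 and 852 to 1624, 1569 and 1732 (1.15 ± 0.16, adjusted p = 5.3e-05). MERTK (ENSGALG00000008257), the receptor with which RPE cells and macrophages take up debris, rose from 1223, 1596 and 1341 to 3305, 2364 and 2573 (0.98 ± 0.13, adjusted p = 1.9e-05).

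RPE65 (ENSGALG00000011259), the isomerase of the visual cycle, read 567, 792 and 509 and then 1222, 877 and 1219 without passing (0.84 ± 0.37, adjusted p = 0.13, limma). RLBP1 (ENSGALG00000006676), the retinaldehyde carrier, and BEST1 (ENSGALG00000007217), the bestrophin channel, had changes of 0.33 ± 0.28 and 0.06 ± 0.26 (adjusted p = 0.49 and 0.92). The 48 h libraries of RPE65 and RLBP1 lay wholly above those of 24 h, while BEST1 overlapped. The SE pools the spread of all 8 groups. For RLBP1 the SD at 48 h was 8266 in DCA explants and 1997 in control explants. Of the 24 listed genes, 15 lay wholly apart and higher and 1 lower, beside 19.8% and 16.9% over all genes. The 1 member that fell, WFDC1 (-0.47), was not called without replicate 3 at 24 h or without replicate 1 at 48 h (adjusted p up to 0.074).

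Among 24 melanin and melanosome genes, 2 rose and none fell, with a median of 0.23. The 2 of 24 that rose stand beside 9.69% over all genes. TYR (ENSGALG00000017237), tyrosinase, read 17589, 16848 and 16566 at 24 h and 28142, 28562 and 25307 at 48 h, which do not overlap, yet its change of 0.68 ± 0.24 missed the threshold (adjusted p = 0.051, limma). It passed by edgeR (adjusted p = 0.048), by DESeq2 (0.038) and where limma was fitted to the control libraries alone (0.00065). TYRP1 (ENSGALG00000015205) and DCT (ENSGALG00000016899), the next enzymes of the pathway, had changes of 0.53 ± 0.26 and 0.31 ± 0.19 (adjusted p = 0.19 and 0.30). Their 48 h libraries also lay wholly above those of 24 h. For DCT the SD at 48 h was 10414 in DCA explants and 2608 in control explants, and the SE pools all 8 groups. Of the 24 listed genes, 10 lay wholly apart and higher and 3 lower, beside 19.8% and 16.9% over all genes. The 2 that rose were GPNMB (ENSGALG00000010949), a melanosomal glycoprotein that macrophages also make (0.61 ± 0.15, adjusted p = 0.0075), and RAB32, a melanosome transport GTPase (0.42 ± 0.13, adjusted p = 0.034). GPNMB was called in each fit that left out 1 library, and RAB32 only in the fit without replicate 3 at 24 h.

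Several genes of neurogenic progenitors fell, while the lists that hold them moved both ways. ATOH7 (ENSGALG00000052760), the factor that commits retinal progenitors to the ganglion cell fate, read 374, 472 and 424 at 24 h and 56.6, 99.4 and 110 at 48 h (-2.29 ± 0.29, adjusted p = 1.4e-05, limma). The Notch ligand gene DLL1 (ENSGALG00000011182) fell from 700, 704 and 633 to 255, 348 and 377 (-1.07 ± 0.18, adjusted p = 0.00025). In both genes each 48 h library was below each 24 h library. ATOH7 was among the 12 largest falls, for which separate groups were required, and DLL1 was picked from its lists by adjusted p. HES1 (ENSGALG00000028015), the repressor downstream of Notch, fell by 0.65 on the log2 scale (SE 0.09, adjusted p = 3e-05), and FOXN4 (ENSGALG00000005062), a factor of amacrine and horizontal cell progenitors, fell from 38.4, 25.9 and 32.5 to 10.1, 14.0 and 9.21 (-1.46 ± 0.31, adjusted p = 0.0025). OLIG2 (ENSGALG00000031010), a neural progenitor factor, fell from 430, 553 and 591 to 115, 112 and 181 (-1.96 ± 0.23, adjusted p = 4.5e-06).

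NTN1 (ENSGALG00000023626), the guidance protein netrin of the closing optic fissure, rose instead, from 207, 308 and 315 to 1305, 1346 and 1410 (2.31 ± 0.23, adjusted p = 5.7e-07, limma). Over 27 eye-field and retinal progenitor factors, 2 rose and 4 fell, with a median of -0.14. SIX6 (ENSGALG00000020359), an eye-field homeobox factor, rose from 2255, 2176 and 2243 to 3672, 4087 and 3839 (0.80 ± 0.13, adjusted p = 0.00017, limma), and MEIS1 (ENSGALG00000041626), a homeobox cofactor, by 0.55 ± 0.12 (adjusted p = 0.003), while its relative MEIS2 (ENSGALG00000039118) fell (-0.33 ± 0.08, adjusted p = 0.0054). PAX6 (ENSGALG00000012123) overlapped between the times (-0.14 ± 0.16, adjusted p = 0.61), as did SOX2 (ENSGALG00000043460) at 85.6 ± 17.9 and 62.6 ± 9.93 (-0.43 ± 0.26, adjusted p = 0.27).

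Neuronal genes moved both ways. Of 22 retinal neuron genes, 4 rose and 6 fell, with a median of -0.41. ELAVL4 (ENSGALG00000010533), an RNA-binding protein of young neurons, fell from 2732, 2318 and 2161 to 1102, 1244 and 1152 (-1.04 ± 0.13, adjusted p = 1.1e-05, limma), and the calcium buffer CALB2 (ENSGALG00000026903), calretinin, from 2910, 2633 and 2301 to 876, 748 and 568 (-1.85 ± 0.17, adjusted p = 3.4e-07). NEFM (ENSGALG00000000317), the medium neurofilament chain, rose from 39.5, 236 and 259 to 1305, 1433 and 1257 (3.29 ± 0.43, adjusted p = 1.7e-05). SNAP25 (ENSGALG00000009003), a synaptic membrane fusion protein, rose from 1051, 1335 and 1322 to 2969, 2868 and 2419 (1.16 ± 0.14, adjusted p = 7.3e-06). STMN2 was at 0 in all 24 h libraries and had 37, 55 and 0 reads at 48 h, at least 8.73-fold higher in the mean with the floor of 3 reads per library, so 1 of the 48 h libraries shared the value of the 24 h group.

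Among 35 synapse and ion channel genes, 12 rose and 1 fell, with a median of 0.52, and 7 were called higher without replicate 1 at 24 h. NRXN3 (ENSGALG00000027255), a presynaptic adhesion protein, rose from 202, 213 and 261 to 743, 783 and 748 (1.76 ± 0.19, adjusted p = 2.8e-06, limma). The glutamate receptor gene GRIA2 (ENSGALG00000009405) rose from 189, 423 and 457 to 1029, 941 and 863 (1.5 ± 0.26, adjusted p = 0.00045). These groups did not overlap. The member that fell was SYT4 (-0.81), which was not called without replicate 3 at 24 h, replicate 1 at 48 h or replicate 2 at 48 h (adjusted p up to 0.093).

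PENK (ENSGALG00000015419), the precursor of the enkephalin peptides, showed another of the largest rises, from 192, 270 and 247 to 5068, 7114 and 6440 (4.71 ± 0.26, adjusted p = 9.9e-11, limma). The group of the 12 largest rises also held RGS7 (ENSGALG00000039772), a regulator of G protein signalling in neurons, which went from 17.1, 9.33 and 47.1 to 348, 277 and 374 (3.99 ± 0.85, adjusted p = 0.0025), and PSD2 (ENSGALG00000030836), which went from 0, 32.1 and 39.8 to 300, 265 and 186 (4.48 ± 0.86, adjusted p = 0.001). LACTBL1 (ENSGALG00000026658), a lactamase-like gene, went from 113, 96.4 and 123 to 1497, 1703 and 1178 (3.70 ± 0.16, adjusted p = 2.8e-12). In each of these 4 genes the groups were apart because the choice required it, and each was called in all 6 fits that left out a library.

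The 12 largest falls among such genes held, beside WNT4 and others described with their lists, ECEL1 (ENSGALG00000030420), an endopeptidase-like protein of neurons, which read 1489, 1585 and 1469 at 24 h and 345, 498 and 287 at 48 h (-2.04 ± 0.20, adjusted p = 4.7e-07, limma). DOK5 (ENSGALG00000007786), an adaptor of receptor tyrosine kinases, fell from 1704, 1366 and 1338 to 255, 382 and 584 (-1.92 ± 0.27, adjusted p = 4.7e-05). GnRH-I (ENSGALG00000000277), the gonadotropin-releasing hormone gene, fell from 620, 441 and 457 to 153, 122 and 138 (-1.86 ± 0.31, adjusted p = 0.00025). These groups were apart because the choice required it, as for GAL3ST1 (ENSGALG00000007781), a sulfotransferase, at lower values (28.8, 30.1 and 27.2, then 6.06, 15.6 and 0). GAL3ST1 met the limit on the mean only through treated explants, with a mean of 807 in FGF2 explants at 24 h. TECTA (ENSGALG00000040857), alpha-tectorin, read 351, 341 and 254 and then 45.5, 63.2 and 109 (-2.18 ± 0.66, adjusted p = 0.026). Its call was lost without replicate 1 or 2 at either time (adjusted p up to 0.11).

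**Figure D3:**
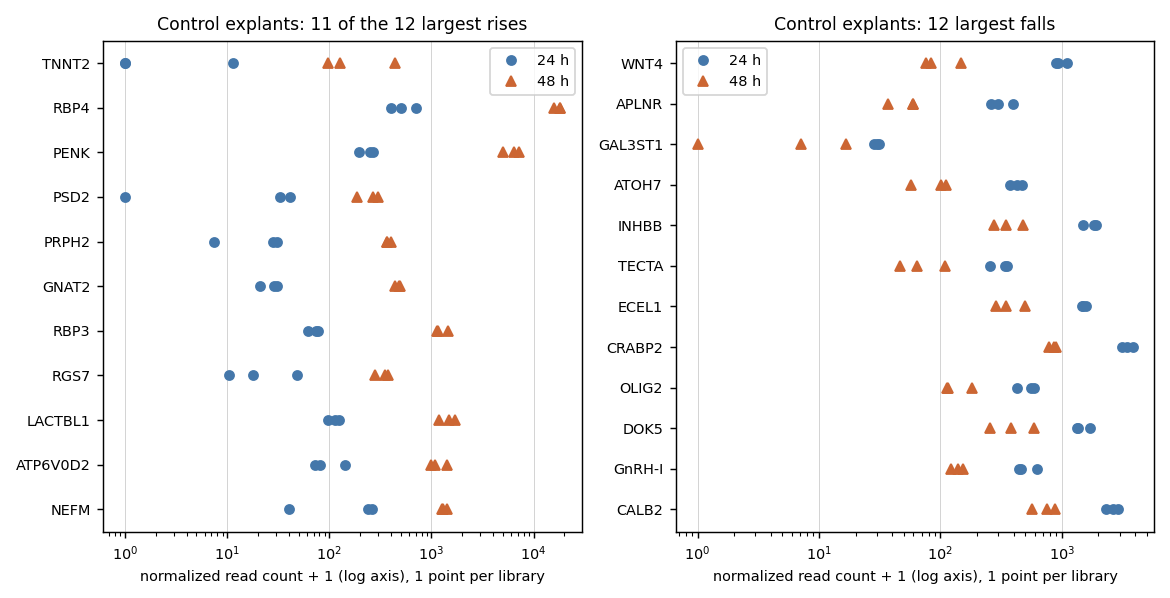
Normalized read count + 1 (log axis) of 11 of the 12 genes with the largest rises (left) and the 12 with the largest falls (right) in control explants, among called genes with a symbol, separate groups and a mean of at least 100, 1 point per library, circles for 24 h and triangles for 48 h. All 23 genes have separate groups because the choice required it; RBP4 is the highest gene at 48 h on the left.

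Macrophage genes rose. CSF1R (ENSGALG00000005725), the receptor that macrophages need to survive, read 1328, 1180 and 1530 at 24 h and 7653, 5009 and 5464 at 48 h (2.15 ± 0.18, adjusted p = 5.2e-08, limma). LCP1 (ENSGALG00000016986), a leukocyte actin bundler, rose from 1132, 1529 and 1500 to 5855, 4182 and 4055 (1.75 ± 0.18, adjusted p = 1.3e-06), and LY86 (ENSGALG00000012801), a myeloid coreceptor, from 328, 276 and 196 to 2036, 1380 and 1777 (2.71 ± 0.39, adjusted p = 5.5e-05). Replicate 1 at 48 h was the highest library for these 3 genes, and no 24 h library reached a 48 h one. C1QC (ENSGALG00000029669), a complement chain, rose from 822, 930 and 867 to 2405, 2460 and 1862 (1.35 ± 0.19, adjusted p = 3.8e-05), and PTPRC (ENSGALG00000002192), the leukocyte surface protein CD45, from 360, 415 and 473 to 1144, 920 and 788 (1.18 ± 0.16, adjusted p = 3.6e-05). Of 20 macrophage and leukocyte markers, 14 rose and none fell, with a median of 1.27. Their summed level was 13708 to 15504 at 24 h and 32064 to 41072 at 48 h, 2.41 times the mean at 24 h (exact permutation p = 0.1, the smallest this design allows).

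Lysosome genes rose as these markers did, and innate immune genes moved both ways. Both lists share members with the macrophage list, such as CTSS and TLR7. The part of these markers in the result was not tested. Of 35 lysosome genes, 19 rose and none fell, with a median of 0.24, and 11 were called higher without replicate 1 at 48 h. Over all genes that fit also gave the fewest called higher, 1021 against 1454 with all libraries. ATP6V0D2 (ENSGALG00000034294), a proton pump subunit of osteoclasts and macrophages, rose from 71.5, 141 and 80.7 to 1404, 1087 and 992 (3.61 ± 0.48, adjusted p = 2.2e-05, limma). PSAP (ENSGALG00000004769), the precursor of the saposins, rose less, from 22698, 22881 and 21747 to 33398, 32637 and 29489 (0.50 ± 0.08, adjusted p = 0.00012, limma). Of 30 innate immune and interferon genes, 8 rose and 3 fell, with a median of 0.14, and 1 was called lower without replicate 1 or replicate 2 at 24 h. TLR4 (ENSGALG00000007001), the endotoxin receptor, rose by 1.37 ± 0.18 (adjusted p = 2.4e-05) from 347, 526 and 476 to 1243, 1174 and 1022, and NFKB2 (ENSGALG00000005653) fell by 0.44 on the log2 scale (SE 0.09, adjusted p = 0.0012).

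HBZ (ENSGALG00000023740), an embryonic globin, fell from 51931, 54940 and 40948 to 29019, 20201 and 29838 (-0.91 ± 0.23, adjusted p = 0.0073, limma), and HBE (ENSGALG00000035309), another one, from 28012, 29591 and 19779 to 13997, 10500 and 15116 (-0.96 ± 0.23, adjusted p = 0.0052). HBBA (ENSGALG00000047152), the adult-type beta globin, rose from 577, 565 and 699 to 2056, 2100 and 3857 (2.06 ± 0.45, adjusted p = 0.0029). The 3 globins had separate groups, and reads shared between globin genes cannot be placed with certainty. Of 13 erythroid markers, 1 rose and 4 fell, with a median of -0.24, and 2 were called lower without replicate 1 or 2 at 24 h or replicate 2 at 48 h. Their sum was 109782 to 146901 at 24 h and 69106 to 98405 at 48 h, 0.638 times the earlier mean (exact permutation p = 0.1). Globins weigh heavily in it, and HBZ alone gave 49273 ± 7365 (SD, n = 3) at 24 h and 26353 ± 5343 at 48 h. Other members did not follow. RHAG went from 8.54, 9.33 and 27.2 to 146, 86.2 and 123 and RHCE from 504, 391 and 543 to 585, 636 and 762, neither called. TFRC overlapped. Of the 13, 3 lay wholly apart and higher and 4 lower, beside 19.8% and 16.9% over all genes.

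Of 15 endothelial markers, none rose and 3 fell, with a median of -0.29, and 5 were called lower without replicate 1 at 24 h. The apelin receptor gene APLNR (ENSGALG00000004841), which marks sprouting vessels, fell from 259, 392 and 294 to 58.6, 58.3 and 35.8 (-2.62 ± 0.38, adjusted p = 6.2e-05, limma), and SOX17 (ENSGALG00000032994), an arterial factor, from 1351, 1570 and 1717 to 729, 763 and 477 (-1.26 ± 0.28, adjusted p = 0.0038). CDH5 (ENSGALG00000032349), the vascular cadherin, read 15422, 18050 and 17372 and then 20253, 14348 and 13658, with overlap (-0.09 ± 0.22, adjusted p = 0.83). The endothelial sum was 0.892 times its 24 h mean (exact permutation p = 0.4). None of 14 lens and surface ectoderm markers was called by limma (median 0.17), while edgeR called 1, DESeq2 called 2, and 5 had an unadjusted limma p under 0.05. By limma, 2 were called higher without replicate 2 and 1 without replicate 3 at 48 h. The lens sum was 1.06 times its 24 h mean (exact permutation p = 0.4), and 2 of the 20 such genes in the table, CRYBA2 and KRT5, were at 0 in all 6 libraries.

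Some skeletal muscle genes rose. MYOG (ENSGALG00000000172), myogenin, read 0, 0 and 3.14 at 24 h and 187, 506 and 157 at 48 h (adjusted p = 0.00014, limma), and TNNT2 (ENSGALG00000000302), a troponin of embryonic muscle and heart, 0, 0 and 10.5 and then 125, 434 and 95.2 (adjusted p = 4.8e-06). CHRNA1 (ENSGALG00000009301), the muscle acetylcholine receptor subunit, went from 9.60, 19.7 and 17.8 to 205, 451 and 236 (4.13 ± 1.03, adjusted p = 0.0078). Replicate 2 at 48 h was the highest library for each of the 3, and the groups were apart, which the choice of TNNT2 required. The muscle regulator MYF5 rose from 363, 519 and 718 to 1375, 1303 and 1556 (1.45 ± 0.43, adjusted p = 0.022, limma), whereas MYF6, PAX7, DES and TNNT3 overlapped between the times. These 5 were named after their values were seen, and MYF5 was not called without replicate 1 or 2 at 24 h. Of 19 neural crest, melanocyte and muscle markers, 7 rose and 1 fell, with a median of 0.73, and 4 were called higher without replicate 1 or 2 at 24 h or replicate 2 at 48 h. The summed level of this list was 1.25 times its 24 h mean (exact permutation p = 0.1). Its crest and melanocyte genes moved both ways. EDNRB2 rose from 114, 414 and 235 to 553, 1034 and 450, a call lost without replicate 1 at 24 h or replicate 2 at 48 h. EDNRB was the 1 that fell, from 741, 920 and 681 to 579, 477 and 332, and it was called in 2 of the 6 fits that left out a library. SOX10 overlapped, at 8927, 9099 and 7357 and then 8738, 6994 and 7954.

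**Figure D4:**
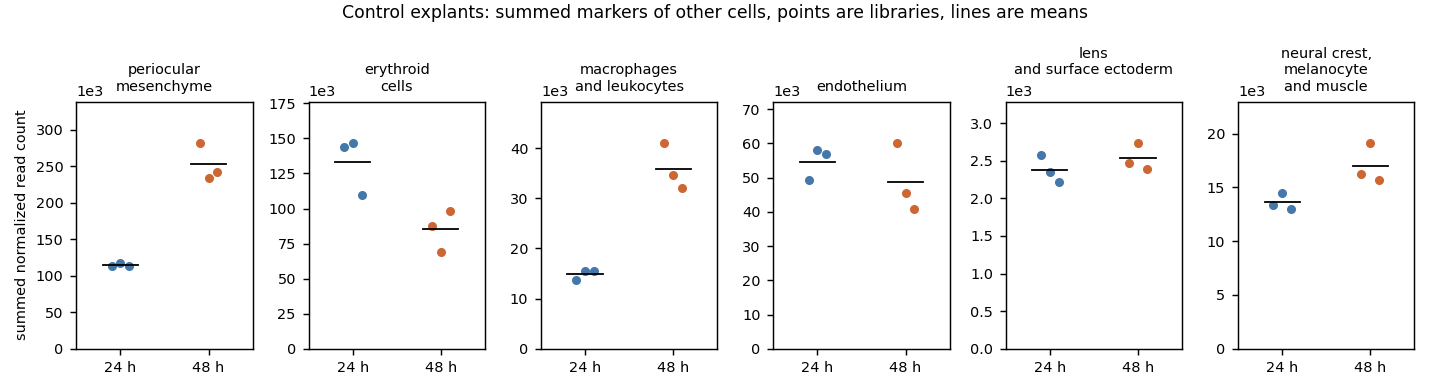
Summed normalized read counts of the marker lists for 6 other kinds of cells in the 6 control libraries, 24 h in blue and 48 h in orange, lines at the means, each panel on its own axis from 0. Mesenchyme sums, macrophage sums and the joint sum of crest, melanocyte and muscle genes were higher in every 48 h library. Erythroid sums were lower in every 48 h library, while endothelial and lens sums overlapped.

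Collagens and other matrix genes rose. COL3A1 (ENSGALG00000035584), a fibrillar collagen chain, read 59989, 51638 and 52306 at 24 h and 200510, 154463 and 157156 at 48 h (1.64 ± 0.20, adjusted p = 8.9e-06, limma). POSTN (ENSGALG00000017046), periostin, rose from 3154, 5144 and 4829 to 19292, 16279 and 16259 (2.01 ± 0.18, adjusted p = 2.4e-07), and COL8A1 (ENSGALG00000015253), a network collagen, from 508, 646 and 674 to 3998, 3204 and 4320 (2.65 ± 0.41, adjusted p = 0.00011). Each 48 h library was above each 24 h library for these 3 genes, which were picked by their adjusted p in this comparison. COL1A1 (ENSGALG00000041555) rose by 0.92 ± 0.22 (adjusted p = 0.0054), and the elastic fibre gene FBN1 (ENSGALG00000004960) by 0.72 ± 0.08 (adjusted p = 1.7e-06). Of 35 collagen and matrix genes, 18 rose and 1 fell, with a median of 0.31. The 1 that fell was COL18A1 (ENSGALG00000038311), a basement membrane collagen, at 29455, 28728 and 27648 and then 22372, 20473 and 22537 (-0.39 ± 0.08, adjusted p = 0.0027).

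Markers of periocular mesenchyme, the cells that make much of this matrix, split. Of 20 tested, 3 rose and 3 fell, with a median of -0.05. The sum of the 20 was 113253 to 117262 at 24 h and 233132 to 282059 at 48 h, 2.20 times as high (exact permutation p = 0.1), and COL3A1 alone, which rose with COL1A1 and DCN, gave 54644 ± 4641 (SD, n = 3) of it at 24 h and 170710 ± 25843 at 48 h. The transcription factor genes MEOX1 (ENSGALG00000001191) and FOXC1 (ENSGALG00000030442) were among those that fell (log2 fold changes -1.08 and -0.54, adjusted p = 0.0015 and 0.033, limma). MEOX1 read 549, 664 and 610 and then 299, 310 and 253, without overlap. FOXC1 was not called without replicate 1 or 2 at 24 h or replicate 2 or 3 at 48 h (adjusted p up to 0.11), and DCN (ENSGALG00000011274) not without replicate 1 at either time (up to 0.087). The part of these cells in the matrix result was not tested.

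Of 28 matrix proteases and inhibitors, 9 rose and 1 fell, with a median of 0.13. MMP13 (ENSGALG00000017183), a collagenase, rose from 91.8, 104 and 90.1 to 899, 556 and 584 (2.79 ± 0.43, adjusted p = 0.00013, limma), and MMP2 (ENSGALG00000003580), a gelatinase, from 9644, 12715 and 12286 to 24438, 20754 and 23018 (0.98 ± 0.11, adjusted p = 5.2e-06). Both had separate groups. The member that fell, MMP15 (-0.17), was called in 2 of the 6 fits that left out a library, those without replicate 3 at 24 h and replicate 1 at 48 h.

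Of 26 contractile, TGF-beta and YAP response genes, 5 rose and 1 fell, with a median of 0.24, and 2 were called higher without replicate 3 at 24 h. TAGLN (ENSGALG00000011902), a smooth muscle actin-binding protein, rose from 7091, 4470 and 3857 to 8460, 9711 and 9432 (0.89 ± 0.24, adjusted p = 0.012, limma), a call lost without replicate 3 at 24 h (0.071). CNN1 (ENSGALG00000041266), calponin, rose from 39.5, 47.7 and 89.0 to 86.9, 111 and 182 (1.11 ± 0.35, adjusted p = 0.033), with overlapping groups, and was not called without replicate 1 or 2 at 24 h or replicate 2 or 3 at 48 h (up to 0.17). AXL (ENSGALG00000008631), a receptor kinase induced by YAP, rose from 5721, 5150 and 4852 to 8505, 7050 and 7795 (0.57 ± 0.12, adjusted p = 0.0025, limma). The SRF gene fell (-0.31), and it was called without replicate 3 at 24 h but in none of the other 5 such fits. Smooth muscle actin ACTA2 (ENSGALG00000006343) overlapped, at 8749 ± 915 and 7883 ± 651 (-0.15 ± 0.16, adjusted p = 0.59). Of 14 genes of epithelial to mesenchymal transition, ZEB2 (ENSGALG00000040465) rose by 0.36 ± 0.09 (adjusted p = 0.0086), a call lost without replicate 1 at 48 h (0.063), and EPCAM (ENSGALG00000008969), an epithelial adhesion protein, fell from 150, 167 and 199 to 86.9, 108 and 93.2 (-0.83 ± 0.21, adjusted p = 0.0076). The transition factor SNAI1 (ENSGALG00000008018) was not called (0.19 ± 0.12, adjusted p = 0.31), the list's median was -0.11, and 2 were called lower without replicate 2 at 48 h. Of 26 epithelial junction and polarity genes, 1 was called, the desmosome gene PKP2 (ENSGALG00000012913), which rose (1.01 ± 0.27, adjusted p = 0.012, and 0.053 without replicate 1 at 48 h), with a median of -0.11. In that list 1 gene was called lower without replicate 2 and 2 without replicate 3 at 48 h.

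WNT4 (ENSGALG00000041708), a WNT ligand, led the falls among named genes with a mean of at least 100 and separate groups. It read 886, 1106 and 929 at 24 h and 81.9, 75.6 and 146 at 48 h (-3.31 ± 0.33, adjusted p = 9.7e-07, limma), a clear gap between the groups. APCDD1 (ENSGALG00000050840), an inhibitor that WNT signalling induces, fell from 572, 954 and 685 to 323, 237 and 217 (-1.49 ± 0.21, adjusted p = 5.1e-05), while RSPO3 (ENSGALG00000042607), which enhances WNT signalling, rose from 115, 74.7 and 88.0 to 284, 261 and 355 (1.70 ± 0.30, adjusted p = 0.00052). Of 33 WNT genes, 5 rose and 6 fell, with a median of -0.16. Only 3 were called higher without replicate 3 at 24 h, replicate 1 at 48 h or replicate 3 at 48 h, and 3 lower without replicate 3 at 24 h or replicate 2 at 48 h.

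INHBB (ENSGALG00000028770), the activin beta B chain, fell from 1495, 1896 and 1832 to 274, 347 and 475 (-2.28 ± 0.32, adjusted p = 3.8e-05, limma). BMP4 (ENSGALG00000012429), a ligand that favours RPE fate in the chick optic vesicle, rose from 1174, 1018 and 1124 to 2652, 2117 and 2116 (1.05 ± 0.17, adjusted p = 0.00015), and BMP7 (ENSGALG00000007668) fell from 4807, 4674 and 4605 to 2817, 2831 and 3105 (-0.69 ± 0.12, adjusted p = 0.00032). The groups of each gene were apart, which the choice of INHBB required. BMP4 and BMP7, 2 ligands of 1 family, moved in opposite directions. BMPER (ENSGALG00000029811), an extracellular BMP binder, rose from 37.4, 37.3 and 17.8 to 203, 278 and 377 (3.20 ± 0.37, adjusted p = 4.2e-06). In all, 5 of 27 BMP and activin genes rose and 2 fell (median 0.04), with 3 called higher without replicate 3 at 24 h and 2 without replicate 1 at 48 h.

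Of 26 Notch and hedgehog genes, 1 rose and 4 fell, with a median of -0.09. The receptor genes parted, NOTCH1 (ENSGALG00000002375) going from 7857, 8454 and 7611 to 5778, 5858 and 5973 (-0.44 ± 0.11, adjusted p = 0.0077, limma) and NOTCH2 (ENSGALG00000002922) from 17248, 17143 and 17043 to 24192, 22929 and 23512 (0.46 ± 0.08, adjusted p = 0.00027). Among 16 retinoic acid genes, 3 rose and 1 fell, with a median of -0.02, and 2 were called lower without replicate 2 at 48 h. The 1 that fell was CRABP2 (ENSGALG00000029140), which delivers retinoic acid to its receptors, from 3122, 3428 and 3828 to 782, 890 and 867 (-2.03 ± 0.21, adjusted p = 1e-06). Of 28 ERK targets and immediate early genes, 1 rose and 2 fell with a median of -0.05. These are 3.57% and 7.14%, beside 9.69% and 7.3% over all genes. DUSP4 (ENSGALG00000011419), a phosphatase that ERK induces, fell from 292, 283 and 314 to 206, 218 and 219 (-0.46 ± 0.12, adjusted p = 0.0092), and DUSP6, EGR1 and FOS were not called (adjusted p = 0.098, 0.31 and 0.063). The 1 that rose was MYC (ENSGALG00000033631, 0.61 ± 0.17, adjusted p = 0.015), a call lost without replicate 2 at 24 h or replicate 3 at 48 h (up to 0.057). The list had 1 gene called lower without replicate 1 or 2 at 24 h or replicate 1 at 48 h.

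Proliferation genes showed few calls. None of 37 mitosis genes was called by limma, edgeR or DESeq2, and 2 had an unadjusted limma p under 0.05 (median -0.02). Without replicate 2 at 48 h 1 of them was called lower. Of 37 DNA replication and S phase genes, none rose and 3 fell, with a median of -0.21. Called lower were 5 without replicate 2 and 1 without replicate 3 at 48 h. The 3 that fell are 8.11% of the list, beside 7.3% over all genes. The fold change was negative for 32 of the 37, beside 7361 of the 15001 genes. E2F1 (ENSGALG00000003045), the activator of S phase genes, fell from 1099, 1118 and 1060 to 835, 806 and 745 (-0.46 ± 0.12, adjusted p = 0.0084, limma). CCND1 (ENSGALG00000007555), cyclin D1, overlapped, at 1059 ± 168 and 1226 ± 49.2 (0.22 ± 0.11, adjusted p = 0.2). Of 27 cell cycle inhibitors and p53 targets, 2 rose and 3 fell, with a median of 0.04. These are 7.41% and 11.1%, beside 9.69% and 7.3% over all genes. SESN2 (ENSGALG00000037603), a stress-induced sestrin, rose from 630, 501 and 635 to 1012, 1394 and 1256 (1.05 ± 0.21, adjusted p = 0.0014), and BTG2 (ENSGALG00000052763), an antiproliferative gene, fell from 8670, 9920 and 10000 to 6178, 6286 and 7454 (-0.52 ± 0.13, adjusted p = 0.0087). CDKN1A (ENSGALG00000028318, p21) and CDKN1B (ENSGALG00000022980, p27) had changes of 0.04 ± 0.12 and 0.17 ± 0.08 (adjusted p = 0.89 and 0.15). In that list 1 gene was called higher in each fit without a control library other than replicate 3 at 24 h, and 1 lower without replicate 1 at either time.

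Sterol synthesis genes fell together. LSS (ENSGALG00000006198), lanosterol synthase, read 4573, 3499 and 3311 at 24 h and 2283, 2324 and 2632 at 48 h (-0.64 ± 0.10, adjusted p = 0.00016, limma). FDPS (ENSGALG00000028880), farnesyl diphosphate synthase, fell from 5349, 4563 and 4115 to 2524, 2906 and 3044 (-0.72 ± 0.13, adjusted p = 0.0005), and SREBF2 (ENSGALG00000041687), the transcription factor of the pathway, from 9039, 8857 and 7247 to 5957, 6304 and 6339 (-0.43 ± 0.06, adjusted p = 9.2e-05). In these 3 genes replicate 1 was the highest at 24 h and the groups were apart. Of 21 sterol genes, 17 fell, none rose, and all 21 fold changes were negative, with a median of -0.50; without replicate 1 at 24 h, 10 were called lower.

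Of 16 fatty acid synthesis genes, 3 rose and 6 fell, with a median of -0.23, and 1 was called higher without replicate 1 or 2 at 24 h or replicate 1 or 3 at 48 h. ELOVL6 (ENSGALG00000054319), an elongase, fell from 553, 552 and 516 to 314, 372 and 257 (-0.79 ± 0.12, adjusted p = 9.3e-05, limma), and FASN (ENSGALG00000040896), fatty acid synthase, from 15541, 15315 and 13377 to 12294, 12071 and 12142 (-0.27 ± 0.07, adjusted p = 0.0073).

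Glycolysis genes did not move as a block. LDHA (ENSGALG00000006300), the lactate dehydrogenase chain that favours lactate formation, rose from 60986, 53356 and 62506 to 89555, 114013 and 92654 (0.74 ± 0.12, adjusted p = 0.00019, limma). SLC16A7 (ENSGALG00000009759), a pyruvate and lactate transporter, rose from 84.3, 102 and 124 to 247, 278 and 178 (1.17 ± 0.28, adjusted p = 0.0061). Both had separate groups. LDHB (ENSGALG00000035836) and ENO1 (ENSGALG00000002377) fell (-0.29 ± 0.08 and -0.30 ± 0.08, adjusted p = 0.012 and 0.0093); LDHB was not called without replicate 1 at 24 h or replicate 3 at 48 h (up to 0.083), and ENO1 not without replicate 1 at either time (up to 0.073). The glucose transporter gene SLC2A1 (ENSGALG00000004889) overlapped (0.20 ± 0.12, adjusted p = 0.29). In all, 3 of 23 rose and 3 fell, with a median of 0.08, and no member was called lower without replicate 1 at 24 h and 1 without replicate 1 at 48 h. Of 28 citric acid cycle and pyruvate dehydrogenase genes, 1 rose and 4 fell, with a median of -0.01. IDH2 (ENSGALG00000034434), a mitochondrial isocitrate dehydrogenase, fell from 12939, 11700 and 11306 to 8796, 9530 and 8704 (-0.41 ± 0.07, adjusted p = 0.00051). The 1 riser, SDHA (0.19), was not called without replicate 1 or 2 at 24 h or replicate 1 at 48 h (adjusted p up to 0.12), and 2 members were called higher without replicate 3 at 24 h. Of 50 nuclear respiratory chain genes, 5 fell and none rose, with a median of -0.12. Called lower were 1 without replicate 1 at either time and 3 without replicate 3 at 48 h. The 5 that fell are 10% of the list, beside 7.3% over all genes, and 47 of the 50 fold changes were negative.

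NDRG1 (ENSGALG00000054783), a gene that hypoxia induces, read 1289, 1422 and 1256 at 24 h and 5680, 4787 and 4535 at 48 h (1.91 ± 0.14, adjusted p = 7.5e-09, limma). P4HA1 (ENSGALG00000004325), a subunit of the enzyme that hydroxylates collagen prolines, rose from 6179, 6662 and 6142 to 13282, 11161 and 11915 (0.93 ± 0.09, adjusted p = 3.6e-07). Both groups of each gene were well apart. Of 22 hypoxia genes, 9 rose and none fell, with a median of 0.35. P4HA1, PLOD1 and LOX of this list also modify collagen.

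Amino acid stress genes rose as well. ALDH1L2 (ENSGALG00000012691) and MTHFD2 (ENSGALG00000034344), enzymes of mitochondrial folate metabolism, rose from 1782, 1863 and 1891 to 4211, 4692 and 3737 (1.18 ± 0.09, adjusted p = 1.1e-08, limma) and from 1298, 1313 and 1582 to 2624, 2847 and 2554 (0.94 ± 0.13, adjusted p = 5.1e-05). ASNS (ENSGALG00000009748), asparagine synthetase, rose from 2463, 2055 and 2225 to 3919, 4791 and 3995 (0.91 ± 0.14, adjusted p = 0.00011). The groups did not overlap in any of the 3. Of 24 genes of the ATF4 stress response, 14 rose and none fell, with a median of 0.39. ATF4 (ENSGALG00000012135) itself, named after its value was seen, rose by 0.41 ± 0.07 (adjusted p = 0.00025).

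Of 19 endoplasmic reticulum chaperones and unfolded protein genes, 6 rose and none fell, with a median of 0.13. XBP1 (ENSGALG00000005796), a factor of the secretory pathway, rose from 5878, 5789 and 5838 to 7512, 8189 and 7228 (0.39 ± 0.05, adjusted p = 2.7e-05, limma). Of 25 NRF2 and redox genes, 7 rose and none fell, with a median of -0.01, and 4 were called higher without replicate 2 or without replicate 3 at 24 h. SLC40A1 (ENSGALG00000043618), the iron exporter ferroportin, rose from 3580, 4071 and 4040 to 9068, 8157 and 8165 (1.12 ± 0.10, adjusted p = 1.7e-07). Of 20 heat shock genes, none rose and 3 fell, with a median of -0.10, and 1 was called higher without replicate 3 at 48 h. HSPD1 (ENSGALG00000008094), a mitochondrial chaperonin, fell from 20405, 18786 and 19163 to 14905, 15670 and 16087 (-0.32 ± 0.07, adjusted p = 0.0029).

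Ribosomal protein genes fell. RPL3 (ENSGALG00000012172) read 51396, 47047 and 48089 at 24 h and 38249, 39797 and 37489 at 48 h (-0.34 ± 0.05, adjusted p = 5.5e-05, limma). RPL34 (ENSGALG00000032002) fell from 15076, 13029 and 12950 to 9832, 10117 and 9980 (-0.45 ± 0.06, adjusted p = 3.8e-05), and RPS3 (ENSGALG00000017330) from 37914, 34983 and 34382 to 28746, 29163 and 27633 (-0.33 ± 0.05, adjusted p = 0.00012). Each 48 h library lay below each 24 h library in these 3 genes. Of 61 cytosolic ribosomal protein genes, 57 fell, none rose, and all 61 fold changes were negative, from -0.51 to -0.14 with a median of -0.34. The counts of such genes are uncertain where processed copies share their reads. Of 28 proteasome genes, 10 fell and none rose, with a median of -0.17, and 27 of the 28 fold changes were negative. Called lower were 4 without replicate 1 at 24 h and 5 without replicate 1 or replicate 3 at 48 h.

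Of 16 circadian clock genes, 5 rose and none fell, with a median of 0.16. ARNTL (ENSGALG00000005378), the clock activator BMAL1, rose from 1738, 1730 and 1669 to 2110, 2261 and 2221 (0.36 ± 0.09, adjusted p = 0.0065, limma). AANAT (ENSGALG00000001955), the melatonin enzyme of photoreceptors and pineal gland, read 346, 359 and 151 and then 589, 412 and 893 (1.17 ± 0.31, adjusted p = 0.012), a call lost without replicate 3 at 24 h or replicate 3 at 48 h (up to 0.093). Only 3 were called higher without replicate 1 at 24 h, replicate 2 at 24 h or replicate 1 at 48 h, and 2 without replicate 3 at 48 h. The labels give the hours in culture and not the clock time of collection.

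The change with time was then compared with that of explants in FGF2 and in DCA. The 2 differences share the 6 control libraries and are not independent of each other. The time change in FGF2 differed from that in control explants for 4524 genes (30.2%), 2208 of them more positive (14.7%) and 2316 more negative (15.4%) in FGF2. It differed for 776 of the 1454 genes that rose in control explants (53.4%) and for 622 of the 1095 that fell (56.8%). These genes were chosen by the control libraries that also enter the difference, so a share above that over all genes is partly built in. The same holds for the DCA shares of risers and fallers. In DCA the difference was called for 736 genes (4.91%), 400 more positive (2.67%) and 336 more negative (2.24%), and this held for 155 of the risers (10.7%) and 120 of the fallers (11%). Counts of differences for the gene lists below are to be read beside 14.7% and 15.4% for FGF2 and 2.67% and 2.24% for DCA. Without 1 library the DCA count was 439 (control replicate 1 at 24 h), 434 (control replicate 1 at 48 h), 360 and 474 (DCA replicates 1 and 2 at 24 h) and 464 (DCA replicate 1 at 48 h), and the number more positive was 266 without control replicate 3 at 48 h.

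**Figure D5:**
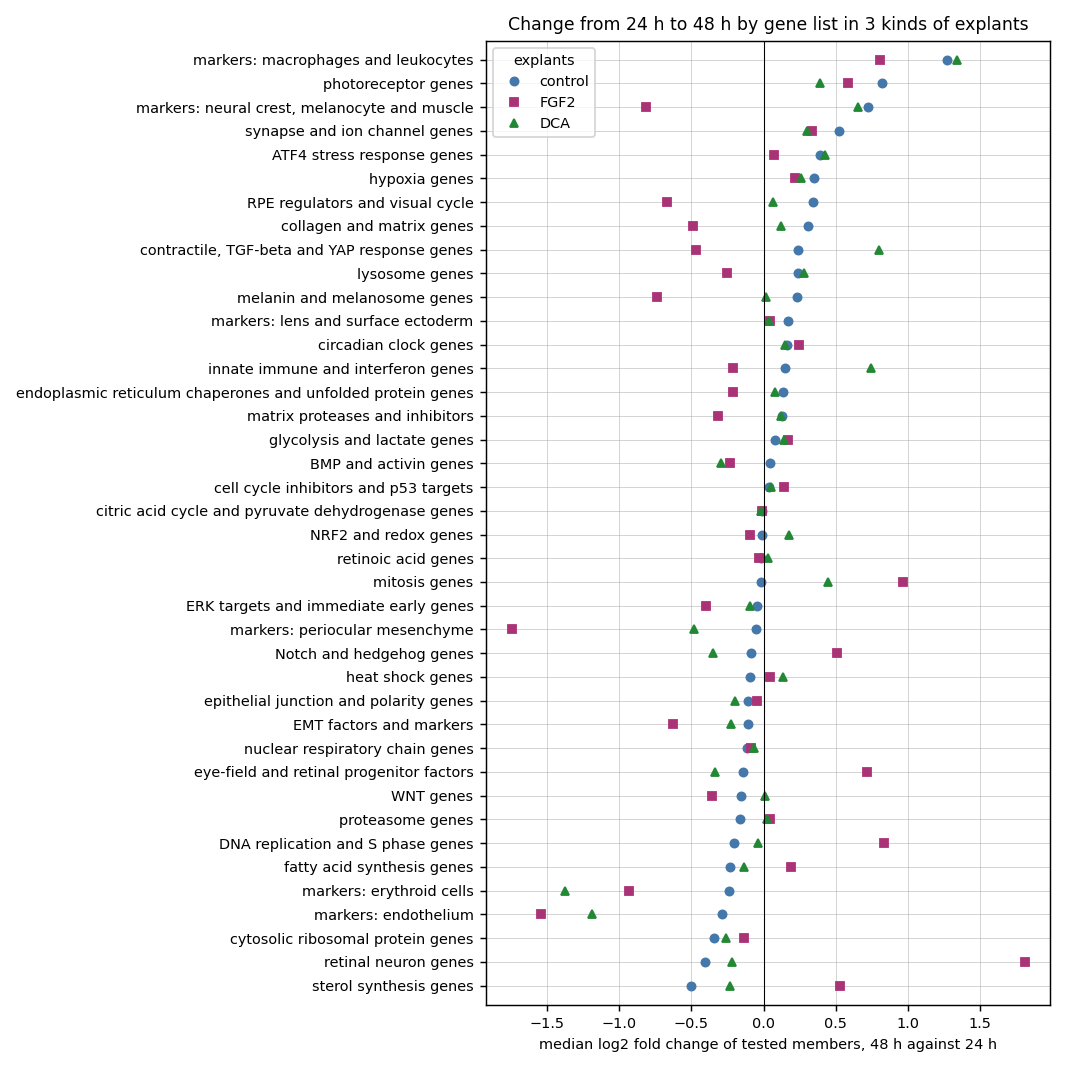
Median log2 fold change of 48 h over 24 h for the tested members of each gene list in control (circles), FGF2 (squares) and DCA (triangles) explants. Medians of sterol, S phase, mitosis and retinal neuron genes lay above the control value in FGF2 explants, and those of melanin, RPE, collagen and mesenchyme genes below it.

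Pigment and RPE genes parted from the control course in FGF2. Of 24 melanin and melanosome genes, the FGF2 change was more negative for 15 and more positive for none (median difference -0.86), and of 24 RPE and visual cycle genes it was more negative for 15 and more positive for 1 (median -0.93). TYR changed by 0.68 in control and -1.32 in FGF2 explants (difference -2.00 ± 0.33, adjusted p = 0.00012, limma), and MITF by 0.66 and -0.28 (difference -0.94 ± 0.17, adjusted p = 0.00027). In DCA, MITF changed by 1.26 (difference 0.60 ± 0.17, adjusted p = 0.046), a call lost without control replicate 1 or 3 at either time or DCA replicate 1 or 2 at either time (adjusted p up to 0.14). The matrix list had 21 of 35 differences more negative in FGF2 and 2 more positive, led in size among the named members by COL3A1 (-2.21 ± 0.28, adjusted p = 6.1e-06).

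RBP3 changed by 4.12 in control, 4.19 in FGF2 and 2.72 in DCA explants, and the DCA difference of -1.40 ± 0.36 was called (adjusted p = 0.029, limma) while that of FGF2 was 0.07 ± 0.36 (adjusted p = 0.91). The RBP3 call in DCA was lost without replicate 1 of control at either time, or replicate 1 or 3 of DCA at either time (adjusted p up to 0.078). OPN1LW changed by 3.21, 3.16 and 2.26, with neither difference called (adjusted p = 0.94 for FGF2 and 0.14 for DCA). For RBP4 the changes were 5.04, 3.33 and 4.85. The difference was -1.71 ± 0.33 in FGF2 (adjusted p = 0.00042, limma) and -0.19 ± 0.33 in DCA (0.80). Mean RBP4 levels in FGF2 explants were above control at both times, 2428 against 540 at 24 h and 24200 against 17328 at 48 h. Of 37 photoreceptor genes, 7 FGF2 differences were more positive and 7 more negative, beside 14.7% and 15.4% over all genes. In DCA 2 differences were more negative, beside 2.24% over all genes.

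Of 27 eye-field and retinal progenitor factors, 17 differences were more positive and 4 more negative in FGF2. ATOH7 fell by 2.29 on the log2 scale in control explants and changed by 1.84 in FGF2, a difference of 4.13 ± 0.41 (adjusted p = 3.2e-07, limma). In DCA it changed by -4.58 (difference -2.29 ± 0.41, adjusted p = 0.0029, limma). Its mean level in DCA explants was 1108 at 24 h and 47.0 at 48 h, against 423 and 88.5 in control. Differences were more positive in FGF2 for 35 of 37 S phase genes, 34 of 37 mitosis genes and 20 of 21 sterol genes, and more negative for none of these. FDPS changed by -0.72 in control and 0.72 in FGF2 explants (difference 1.44 ± 0.18, adjusted p = 5.6e-06). In DCA the difference was called for 3 mitosis genes and 1 sterol gene, all more positive, beside 2.67% over all genes. Of the 61 ribosomal protein genes, 19 had a more positive change in FGF2 and 1 in DCA, and the medians were -0.34 in control, -0.14 in FGF2 and -0.26 in DCA explants.

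CSF1R changed by 2.15 in control, 1.58 in FGF2 and 1.46 in DCA explants, with neither difference called (adjusted p = 0.087 and 0.11, limma). Of 20 macrophage and leukocyte markers, 4 differences were more negative in FGF2 and 1 in DCA, beside 15.4% and 2.24% over all genes. Of 28 matrix proteases and inhibitors, 13 differences were more negative and 2 more positive in FGF2, and 2 were more negative and 4 more positive in DCA. MMP13 changed by 2.79, 4.33 and 0.49, and its DCA difference of -2.30 ± 0.61 (adjusted p = 0.033) was not called without control replicate 1 or 3 at either time, DCA replicate 1 or 3 at 24 h or DCA replicate 2 at 48 h (up to 0.088). Contractile, TGF-beta and YAP response genes had 14 of 26 differences more negative in FGF2 and 10 more positive in DCA. Among them ACTA2 changed by -0.15 in control, -0.90 in FGF2 and 1.35 in DCA explants, and both differences were called (-0.75 ± 0.23, adjusted p = 0.016, and 1.5 ± 0.23, adjusted p = 0.0009). The FGF2 call was lost without FGF2 replicate 3 at 48 h (0.054).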

How the data were processed

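RNA was measured in 24 libraries, in 8 groups of 3, of which the 6 control libraries are described here. The deposited table holds normalized counts, a signal that the authors made by dividing the counts of a library by its size factor, as the values show. The submitters' processing notes name DESeq2 1.34.0, StringTie 2.1.4, STAR 2.7.5b, Trim Galore 0.6.4 and, as the build, GRCg6a. Which program counted the reads and with which strand setting is not given in the sources used here, so reads of overlapping, antisense and near-identical genes may be misplaced. Whole reads were recovered for 100% of values within 0.001 read, and on these edgeR called 2555 genes in the control comparison.

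Values were tested as log2(value + 1), which understates changes of low genes, with limma 3.58.1 (R 4.3.3, trended variance) over all 8 groups with 16 residual degrees of freedom. The filter kept genes whose mean over 24 libraries reached 10, p-values were adjusted by Benjamini-Hochberg over the 15001 genes, and the threshold was 0.05. Differences between time changes were interaction contrasts of the same fit. The scripts were tested on simulated data. Alternatives were edgeR 4.0.16, DESeq2 1.42.0, other pseudocounts, filters, scalings and variance models, control libraries alone, a replicate block, and leaving out each library. Deviations of same-numbered control libraries from their group means correlated at -0.02, -0.08 and -0.02, so no effect shared by number was seen. The labels do not say whether the numbers pair the samples, and these correlations cannot settle it.

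Named genes were the 12 highest and 12 lowest called changes (symbol, separate groups, mean of 100 or more), from each list up to 5 members by adjusted p, a fixed set, and the 5 most positive and 5 most negative called differences for FGF2 and for DCA. PDE6B, CNGB3, RBP4A, ATF4, IMPG1, PDE6G, COL18A1, SYT4, STMN2, MMP15, SRF, WFDC1, FOXC1, EDNRB, SOX10, MYF5, MYF6, PAX7, DES, TNNT3, CRYBA2 and KRT5 were named after their values were seen. OPN1LW came from the photoreceptor list, which was itself added after values were seen. Among the 12 highest and 12 lowest, separate groups were a condition of the choice and not a result. For list members picked by adjusted p, the choice favoured separate groups. The genes compared and the lists were chosen with earlier results of these data known. Of 1161 symbols on 39 lists, 1006 were in the table and 978 were tested, and 3 that the table holds more than once were left out. RefSeq's GRCg7b table served for synonyms and neighbours of RBP4. Read totals limit precision for low genes, and the floor of 3 reads covers counting error only. Some genes that the naming rule selects are not reported here.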

Additional observations from a re-analysis of the deposited data

Results flagged for a closer look

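Each result here is a difference between groups in the change with time, tested as an interaction (limma, adjusted p under 0.05), and both comparisons use the same 6 control libraries. The counts were 4524 genes for FGF2 and 736 for DCA. Values are log2 differences, treated minus control explants. The genes named were required to be called in control explants, and the same control libraries enter the difference. A difference that runs against the control change is thus partly favoured by the choice. The mean limit of 100 was taken over all 24 libraries. FOXN4, below 100 in every control library, met it only through treated explants, which also favours a large difference.

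In FGF2 the most negative differences among genes with a symbol, a mean of at least 100 and a call in control explants included those of TNNT2, a muscle troponin (-6.56), PENK, the enkephalin precursor (-5.74), NTN1, netrin (-3.73), and FST, the activin binder follistatin (-3.47). The most positive included those of the neurogenic factors FOXN4 (4.18) and ATOH7 (4.13), of CD38, an NAD hydrolase (3.32), and of MYBL1, a MYB family factor (3.17). These 8 differences were called in all 12 fits that left out 1 library. The control change of FST was itself called in 2 of 6 such fits (adjusted p up to 0.21), and that of CD38 in 5 of 6 (up to 0.052). At 24 h the mean of PENK was 2747 in FGF2 against 236 in control, and that of TNNT2 74.0 against 3.49. At 48 h these means were 1364 against 6207 for PENK and 59.3 against 218 for TNNT2.

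Among genes within the same limits, the most negative differences in DCA were those of FBP1, the gluconeogenic fructose bisphosphatase (-2.52), RGS5, a pericyte regulator of G protein signalling (-2.49), ARHGAP15 (-2.40), the globin HBBA (-2.39) and the collagenase MMP13 (-2.30). The most positive were those of AKR1B10, an aldo-keto reductase (2.23), SYNDIG1L (2.05), SCARA5, a ferritin receptor (2.05), the ligand WNT2B (1.98) and FOXN4 (1.96). HBBA and MMP13 were called in 5 of 12 such fits, with adjusted p up to 0.09 and 0.088, and the other 8 in all 12. The control change of WNT2B was called in 0 of 6 such fits (adjusted p up to 0.12), that of SYNDIG1L in 2 (up to 0.15), and those of RGS5 and ARHGAP15 in 4 (up to 0.058 and 0.065). The HBBA call was lost without control replicate 1 or 2 at 24 h, control replicate 3 at 48 h, or DCA replicate 1 or 2 at either time.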

How the results depend on the processing

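The control comparison gave 2371 to 2933 calls under the other tools, scalings, filters, pseudocounts and models, against 2549. The lowest count came from the control libraries alone and the highest from DESeq2. With a replicate block the counts were 2492 for control, 4465 for FGF2 minus control and 731 for DCA minus control. Since the labels do not say whether the numbers pair the samples, this is a description only. Leaving out 1 library gave 698 to 905 genes called lower in the control comparison. For DCA minus control it gave 360 to 1058 genes, 199 to 563 more positive and 161 to 495 more negative, while DESeq2 gave 1238, with 670 more positive and 568 more negative. The causes were not tested. The counts for single genes cover the set picked for naming. Some of that set are not named in the text, and some genes of the text are not in it. For this set, 4107 of the values under these alternatives stayed on the same side of the threshold. Of the others, 231 no longer passed, 13 newly passed and 0 reversed. A change of direction counted as reversed only where the main fit or the alternative called the gene. Genes called in neither could change sign, as PMEL did (-0.13 to 0.03 over the fits that left out a control library). Depth limits genes with few reads, such as those at 0 in some 24 h libraries.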

Other observations

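The 2 largest fitted falls of the control comparison belonged to genes without a symbol in the table. ENSGALG00000052797 read 3283, 2679 and 2279 normalized counts in the control libraries at 24 h and 0 in all 3 at 48 h (adjusted p = 0.024, limma). Over all 24 libraries it was at 0 in 9 and between 2279 and 4894 in the other 15, with no library in between. The libraries at 0 were the 3 control libraries at 48 h, 1 DCA and 1 FGF2 library at 24 h, and 2 of 3 libraries with both agents at each time. ENSGALG00000053368 read 131, 157 and 131 at 24 h and 0 in all 3 control libraries at 48 h (adjusted p = 0.041), and it was at 0 in 12 of the 24 libraries and between 49.6 and 219 in the other 12. Replicates of 1 group thus differed between 0 and a high value for both genes. In all, 6 called genes were at 0 in every control library at 48 h, 1 of them with a symbol, and 19 were at 0 in every control library at 24 h, 9 of them with a symbol.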
